A study of Mus musculus with 6 samples.

Results

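The 60 genes described here are the translation initiation factors of mouse gastrocnemius (GAS) muscle, compared between wildtype (WT) and Kvβ2 knockout (KO) mice. They were chosen by name alone: of the 37979 genes in the expression table, 60 had a symbol beginning with *Eif1*, *Eif2*, *Eif3*, *Eif4*, *Eif5* or *Eif6* and no pseudogene suffix. The name also brings in the eIF4E-binding proteins (*Eif4ebp* genes) and the eIF2α kinases (*Eif2ak* genes), which are regulators of initiation. It brings in 5 genes listed as *Eif2c1* to *Eif2c5* as well. Of these, *Eif2c1* to *Eif2c4* are older symbols of the Argonaute genes of small RNA silencing and *Eif2c5* is annotated as a long noncoding RNA, so 55 of the 60 are translation factors or their regulators.

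Translation of an mRNA begins when the cap-binding complex eIF4F (the cap-binding protein eIF4E, the scaffold eIF4G and the helicase eIF4A) recruits the small ribosomal subunit, which carries eIF3, eIF1, eIF1A, eIF5 and the ternary complex of eIF2, GTP and the initiator tRNA. The subunit scans to the start codon, eIF5 triggers GTP hydrolysis by eIF2, and eIF5B helps the large subunit to join. Initiation is held back at a pair of well-known points, by eIF4E-binding proteins that compete with eIF4G for eIF4E and are released when mTORC1 phosphorylates them, and by kinases that phosphorylate eIF2α and so block its exchange factor eIF2B. In skeletal muscle, protein synthesis at these steps follows feeding, loading and disuse.

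The study asked how loss of Kvβ2, a potassium channel subunit encoded by *Kcnab2*, affects skeletal muscle. GAS muscle of 3 WT and 3 Kvβ2 -/- KO male mice of 20 weeks, untreated, was sequenced with 1 library per mouse, numbered 1, 7 and 8 in each genotype. Both genotypes came from interbred Kvβ2 +/- null parents, and the allele is missing in the whole body, not in muscle alone. The values are FPKM of whole muscle tissue, that is sequenced fragments divided by transcript length and by library size, in which fewer cells of a type and less RNA per cell cannot be told apart.

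The libraries held an estimated 14950000 to 19240000 fragments in KO and 20520000 to 21570000 in WT muscle, so every KO library was shallower than every WT library. Values of a genotype are given in the order of replicates 1, 7 and 8 throughout. The deleted gene *Kcnab2* stood at 0.233, 0.1 and 0.110 FPKM in WT against 0, 0.0151 and 0 FPKM in KO muscle, without overlap (p = 0.1 in a two-sided exact permutation test, which can go no lower with 3 against 3). Its WT levels are near the detection limit, as 1 fragment on 1 kilobase is worth 0.0464 to 0.0487 FPKM in the WT libraries. Muscle fiber genes were abundant in each library, with a summed level of 36450 to 53590 FPKM in WT and 53910 to 59920 FPKM in KO muscle over the 12 genes searched, although *Myh4* was listed at 0 in all 6. The slow fiber gene *Myh7* varied widely, between 0.0514 and 24.3 FPKM over the WT and between 15.2 and 77.4 FPKM over the KO libraries. All 6 adipocyte markers, which include the defining genes *Adipoq* and *Plin1*, had higher means on the log scale in KO muscle (4 at an unadjusted p under 0.05), with a summed level of 233.9 to 443.6 FPKM in WT and 302.4 to 618 FPKM in KO libraries. The part of fiber type and of fat in the results below was not tested.

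The genes on which the results turn include the binding proteins, the scaffolds and their shared partner eIF4E. The coding sequence of the eIF4E-binding site is shown for this reason for *Eif4ebp1*, *Eif4ebp2*, *Eif4g1* and *Eif4g3*. No match to the pattern searched was found in *Eif4g2* or *Eif4enif1*, and *Eif4ebp3* is not reported here. The codons of the eIF4E-binding motif are in capitals, with 12 coding bases on each side in lower case. The sequences were read 5′ to 3′ on the coding strand from GENCODE vM21 transcripts of GRCm38.
Eif4ebp1: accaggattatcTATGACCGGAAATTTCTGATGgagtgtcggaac
Eif4ebp2: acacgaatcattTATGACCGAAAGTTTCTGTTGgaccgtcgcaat
Eif4g1: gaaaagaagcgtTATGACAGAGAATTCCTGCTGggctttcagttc
Eif4g3: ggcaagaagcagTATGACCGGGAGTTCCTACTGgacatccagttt
The site of *Eif4ebp1* lies in exon 2 of 3, at chr8:27273337-27273357 on the plus strand, and begins at base 157 of a coding sequence of 351 bases. That of *Eif4ebp2* lies in exon 2 of 3 too, at chr10:61435069-61435089 on the minus strand. In *Eif4g1* the site is in exon 13 of 33 (chr16:20681221-20681241, plus strand) and in *Eif4g3* in exon 14 of 34 (chr4:138156650-138156670, plus strand). Over the 21 bases in capitals, *Eif4ebp2* had 18 in common with *Eif4ebp1*, and *Eif4g1* and *Eif4g3* had 16 each.

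The genotypes were compared by limma, a linear model for each gene, on the log2(FPKM + 0.1) scale. It took in the 12334 genes whose mean reached 0.5 FPKM, and 55 of the 60 genes passed this filter, 51 translation factors or regulators and 4 Argonaute genes. Each of these 55 had a mean above 0.5 FPKM in both genotypes. The 5 others were *Eif4e1b* and *Eif2c5*, listed at 0 in each library, *Eif5a2* (0.191 to 0.681 FPKM), *Eif4ebp3* (0 to 1.29 FPKM) and the gene ENSMUSG00000030068 listed as *Eif4e3*, which is 0.236 FPKM at most. In GENCODE vM21 this is a separate gene that shares exonic bases with both *Eif4e3* and *Foxp1*, and *Eif4e3* itself is listed as *Eif4e3.1*. Fold changes below are on the log2(FPKM + 0.1) scale, KO against WT.

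None of the 55 tested genes passed an adjusted p under 0.05, where 40 of all 12334 genes did (0.324%, of which 0.251% higher and 0.073% lower in KO muscle). With genes listed at 0 in any library left out, 1 of 12092 genes passed as higher and 0 as lower, and 0 of the 55. In the fit of all 12334 genes, 4 of the 55 were higher and 16 lower in KO muscle at an unadjusted p under 0.05 (7.27% and 29.1%). At that p, 15.3% of all tested genes were higher and 10.9% lower. The KO libraries all lay under the WT libraries for 19 of the 55 (34.5%, against 16.2% of all tested genes) and all above them for 7 (12.7%, against 18.3%). The fold change was under 0 for 36 of the 55 (65.5%, against 49.0% of all genes). With array weights, by which limma gives less weight to libraries that stand apart, 5 passed an adjusted p under 0.05 as higher and 13 as lower (9.09% and 23.6%), beside 15.1% and 10.4% of all genes. The median fold change was -0.10 over the 55 and 0.01 over all tested genes. Genes grouped under start codon selection, eIF2 subunits, *Eif4e*, *Eif4a2* and *Eif4g2* made up much of the lower side. On the higher side, the 4 were *Eif4ebp1*, *Eif3d*, *Eif3k* and *Eif2b4*.

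**Figure D1:**
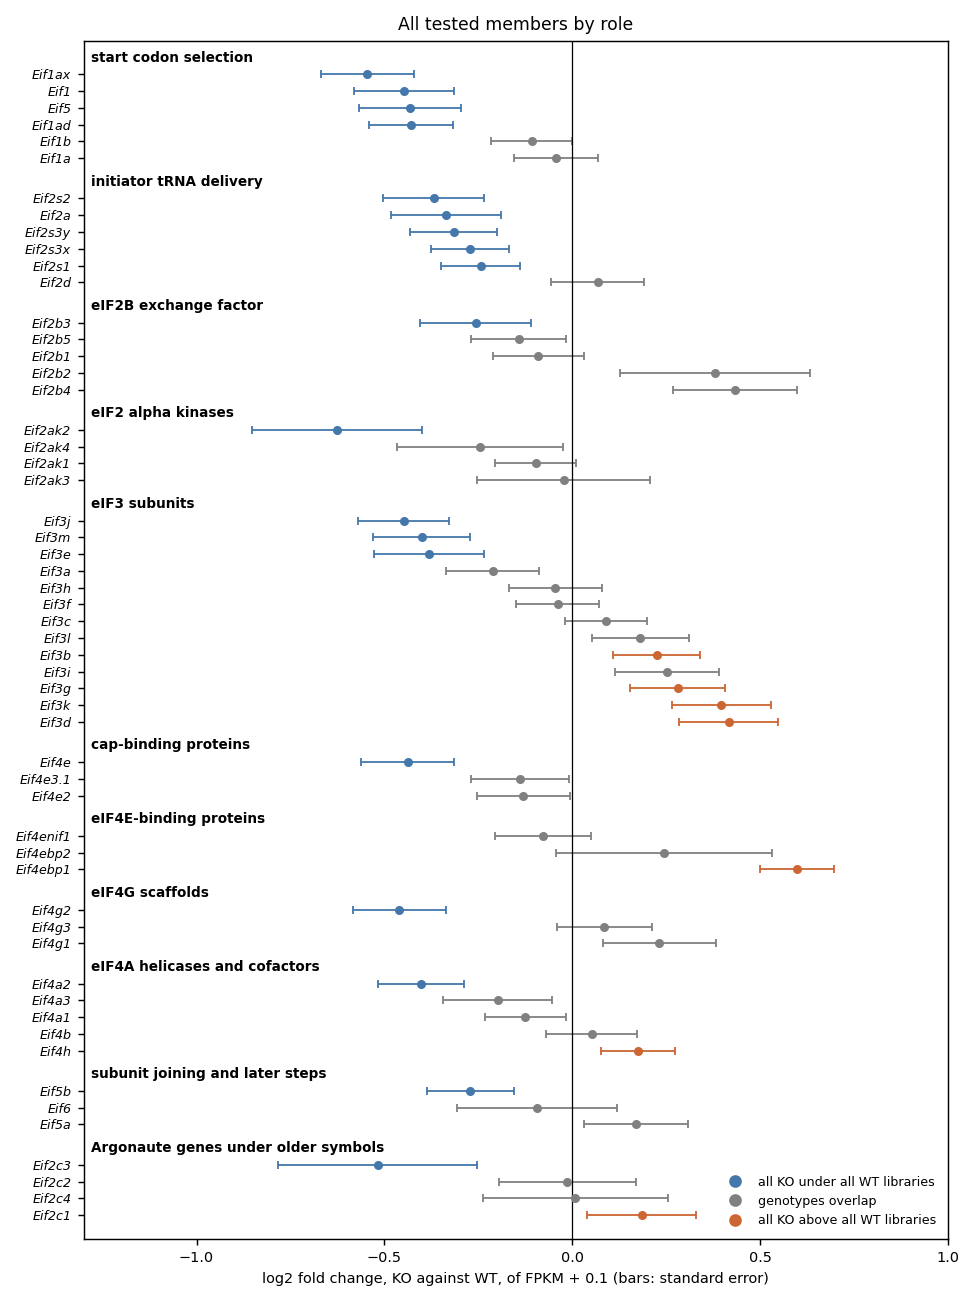
Log2 fold change of FPKM + 0.1 in KO against WT GAS muscle for the 55 tested genes, grouped by role; points are the limma estimates, bars their standard errors, and colors mark genes whose 3 KO libraries all lay under (19 genes) or above (7 genes) the 3 WT libraries. The 6 genes grouped under start codon selection all lie at or left of -0.04, while the 13 eIF3 subunits spread from -0.45 to 0.42.

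Fold changes followed the base composition of the transcripts, in this family as in the rest of the table. GC content, the share of G and C in a gene's annotated transcripts, had a rank correlation with the fold change of 0.74 over the 55 tested genes of the family, and of 0.70 over the 11985 tested genes with a known GC content. These are descriptions across genes of the same 6 libraries. All 17 of the 55 under 45% GC, 16 translation factors or regulators and the Argonaute gene *Eif2c3*, were lower in KO muscle, as were 89.4% of all genes in that class, and 13 of the 17 were so at an unadjusted p under 0.05. Of the 12 with 53% GC or more, 2 were lower, against 11.3% of all genes. Each library's own deviation from the mean of the 6 had a rank correlation with GC content of 0.39 to 0.57 in the KO libraries and of -0.61 to -0.30 in the WT libraries, so this trend separated the genotypes and cannot be told apart from the genotype in these values. After a loess fit of each library's deviation on GC content was subtracted, 1 of the 55 was higher and 4 were lower at an unadjusted p under 0.05 (1.82% and 7.27%, against 5.37% and 5.43% of all genes, and 9.09% against 10.8% in either direction), and their median fold change was -0.05. The 5 were *Eif4ebp1* on the higher and *Eif1ad*, *Eif1*, *Eif1b* and *Eif4a3* on the lower side. The correction turned the sign of 17 of the 55 fold changes, 9 that were negative and 8 that were positive as deposited. The value after this correction is given beside the fold changes below where it bears on them.

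**Figure D2:**
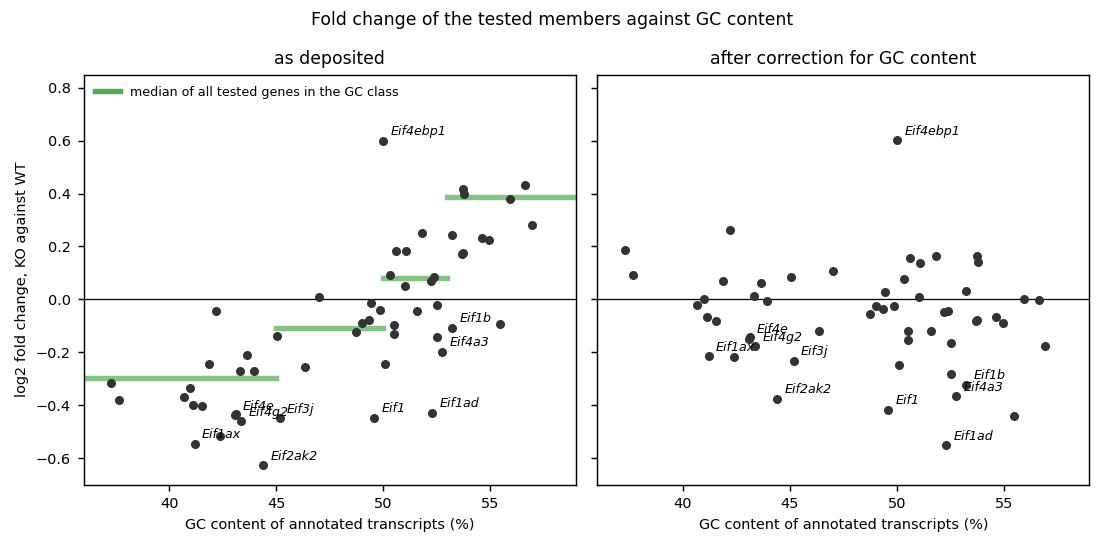
Log2 fold change (KO against WT, vertical axis) against the GC content of annotated transcripts in percent (horizontal axis) for the 55 tested genes of the family, as deposited on the left and after correction for GC content on the right; each point is 1 gene and green bars are the medians of all tested genes in 4 GC classes (-0.30, -0.11, 0.08 and 0.39). *Eif4ebp1*, at 50.02% GC, lies at 0.60 in both panels, and the points under 45% GC move from all below 0 to both sides of it.

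The eIF4E-binding proteins held the gene with the lowest p of the family. *Eif4ebp1*, which encodes 4E-BP1 (chromosome 8, 27260329 to 27276674, plus strand), measured 24.2, 24.0 and 26.2 FPKM in WT against 35.7, 39.0 and 38.2 FPKM in KO muscle. Its lowest KO library lay well above its highest WT library. The means were 24.8 ± 1.25 FPKM in WT and 37.6 ± 1.74 FPKM in KO muscle (SD, n = 3 each). The log2 fold change was 0.60 (SE 0.10, limma adjusted p = 0.0667), higher in 3 of 3 KO libraries, and it missed the threshold of 0.05. It was 0.60 after the GC correction too (limma adjusted p = 0.162) and ranged from 0.57 to 0.64 when each library was left out in turn.

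*Eif4ebp2*, the paralog that is the more abundant of the pair per length in this muscle, measured 29.6, 56.4 and 62.9 FPKM in WT against 66.0, 45.8 and 57.9 FPKM in KO muscle. The genotypes overlapped, and WT replicate 1 lay apart from the other 5 libraries. The log2 fold change was 0.24 (SE 0.29, limma adjusted p = 0.613), -0.09 without WT replicate 1 and 0.03 after the GC correction. *Eif4ebp3* was near the detection limit, at 0.245, 0 and 1.29 FPKM in WT and 0.528, 0.278 and 0 FPKM in KO libraries, and shares 67.3% of its exonic bases with another annotated gene of the same strand. *Eif4enif1* (4E-T, a binding protein that shuttles eIF4E) ranged from 11.99 to 15.5 FPKM with overlap.

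The cap-binding proteins were all lower in KO muscle in the mean, 1 of the 3 at an unadjusted p under 0.05, while *Eif4e3* lay above 0 after the GC correction. Lower at that p were 10.9% of all tested genes. *Eif4e* (chromosome 3, 138526179 to 138559696, plus strand) measured 40.8, 37.9 and 35.1 FPKM in WT against 31.1, 24.5 and 28.5 FPKM in KO muscle. Its KO libraries were the 3 lowest. Its log2 fold change was -0.44 (SE 0.12, limma adjusted p = 0.0981). With 43.1% GC it lies in the class in which most genes were lower, and after the GC correction the fold change was -0.15. *Eif4e2*, the homolog that binds caps as a repressor (20.4 to 26.7 FPKM), and *Eif4e3* (16.8 to 22.8 FPKM, listed as *Eif4e3.1*) overlapped between the genotypes, with fold changes of -0.13 and -0.14, and of -0.15 and 0.09 after the GC correction.

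The scaffolds differed in direction as deposited, while all 3 were under 0 after the GC correction. *Eif4g2* encodes DAP5, a scaffold that lacks the eIF4E-binding region and serves cap-independent initiation. It measured 262, 219 and 230.5 FPKM in WT against 186, 153 and 178 FPKM in KO muscle, with no overlap. Its log2 fold change was -0.46 (SE 0.12, limma adjusted p = 0.0915), and -0.18 after the GC correction. *Eif4g1*, the main scaffold of eIF4F, measured 85.7, 113 and 119 FPKM in WT against 128, 111 and 131 FPKM in KO muscle. KO replicate 7 lay within the WT range, and WT replicate 1 lay under the rest. The log2 fold change was 0.23 (SE 0.15, limma adjusted p = 0.358) and -0.07 after the GC correction. *Eif4g3*, a paralog of *Eif4g1*, ranged from 32.9 to 41.6 FPKM with overlap and a fold change of 0.09 that was -0.05 after the correction.

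Among the helicases and their cofactors, *Eif4a2* was the most abundant, at 263, 251 and 232 FPKM in WT against 191, 169 and 206 FPKM in KO muscle. No KO library reached the WT range. Its log2 fold change was -0.40 (SE 0.11, limma adjusted p = 0.0982), and -0.08 after the GC correction. The paralog *Eif4a1*, whose protein shares the helicase role in eIF4F, measured 60.2, 56.0 and 52.3 FPKM in WT against 54.6, 47.5 and 52.4 FPKM in KO muscle, with overlap and a fold change of -0.13. *Eif4a3*, the helicase of the exon junction complex, measured 21.7, 21.9 and 15.9 FPKM in WT against 17.8, 17.1 and 16.4 FPKM in KO muscle. WT replicate 8 was under every KO library. Its fold change was -0.20, and -0.37 after the GC correction. The cofactors *Eif4b* and *Eif4h*, which stimulate eIF4A, had fold changes of 0.05 and 0.18, and the *Eif4h* libraries did not overlap (25.8 to 28.1 FPKM in WT, 29.4 to 31.8 FPKM in KO muscle). After the GC correction they were at 0.01 and -0.08, so the direction of *Eif4h* turned.

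Ratios of a pair of genes within a library do not depend on how the library was scaled, and show unequal levels without saying which gene moved. The ratio of *Eif4ebp1* to *Eif4e* was 0.593, 0.634 and 0.748 in WT and 1.15, 1.59 and 1.34 in KO replicates 1, 7 and 8. Thus *Eif4ebp1* was under *Eif4e* in each WT library and above it in each KO library. The log2 difference of this ratio was 1.04, between 0.92 and 1.15 when 1 library was left out. After the GC correction it was 0.75, an alternative added after the data were seen. The ratio of *Eif4ebp2* to *Eif4e* was 0.725, 1.49 and 1.79 in WT and 2.12, 1.87 and 2.03 in KO muscle, again with no overlap. Its log2 difference of 0.68 was 0.29 without WT replicate 1 and 0.18 after the GC correction.

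*Eif4g1* relative to *Eif4g2* was at 0.326, 0.518 and 0.518 in WT and at 0.690, 0.726 and 0.736 in KO replicates 1, 7 and 8. The log2 difference was 0.69, and 0.11 after the GC correction. The ratio of *Eif4a1* to *Eif4a2* was 0.229, 0.223 and 0.225 in WT and 0.286, 0.281 and 0.255 in KO muscle, a log2 difference of 0.28 that was 0.03 after the GC correction. The 3 WT libraries had nearly the same helicase ratio. Of the 10 ratios computed, 5 did not overlap between the genotypes: these 4 and that of *Eif1* to *Eif1b*. The other 5, *Eif4ebp1* to *Eif4ebp2* and *Eif4e* to *Eif4e2* among them, overlapped. The share of ratios without overlap over other gene pairs was not computed, so this count has no background. Of single tested genes, 18.3% had all KO libraries above and 16.2% all under the WT libraries. The pairs were chosen with earlier results of these data known.

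**Figure D3:**
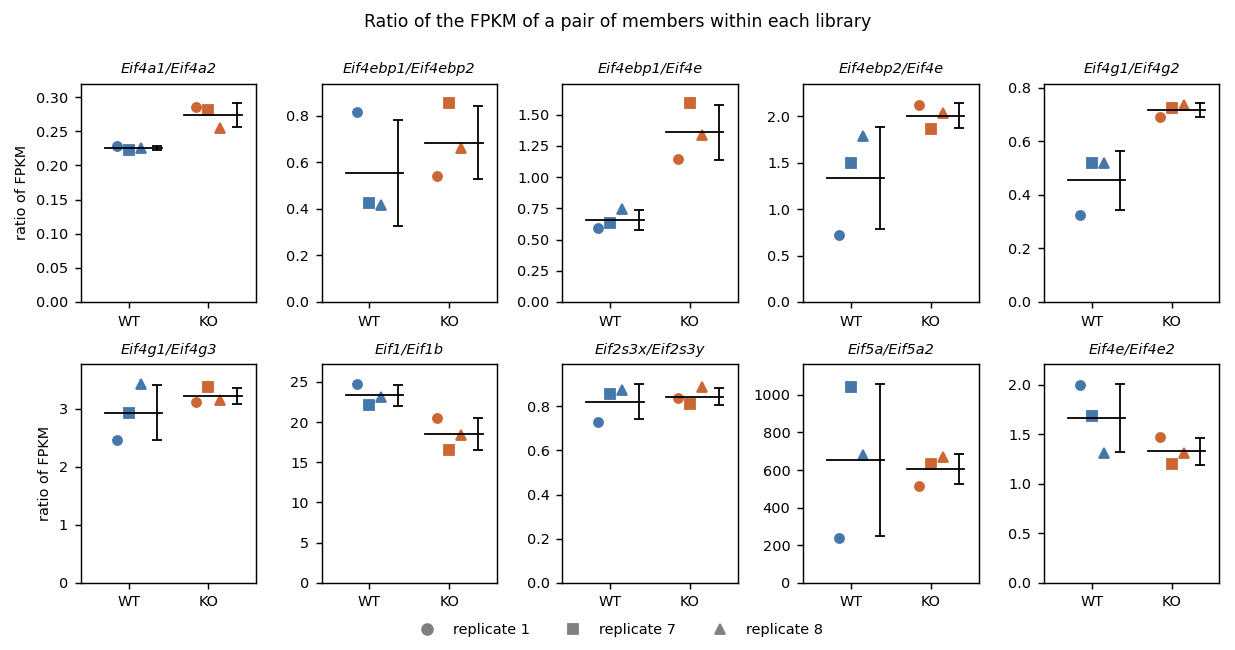
Ratio of the FPKM of 2 initiation factor genes within each library, for 10 pairs, in WT (blue) and KO (orange) GAS muscle; symbols mark replicates 1, 7 and 8, lines the mean and bars the SD (n = 3). The ratio of *Eif4ebp1* to *Eif4e* is 0.658 ± 0.080 in WT and 1.36 ± 0.22 in KO muscle without overlap, while that of *Eif2s3x* to *Eif2s3y* overlaps at 0.820 ± 0.079 and 0.843 ± 0.039.

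The 6 genes grouped under start codon selection, with *Eif1ad* placed there for its eIF1A domain alone, were all lower in KO muscle in the mean. Of the 6, 4 were lower at an unadjusted p under 0.05, *Eif1ad* among them, and the same 4 had no overlap. *Eif1a* lay above 0 after the GC correction and at up to 0.01 when 1 library was left out. Among all tested genes, 10.9% were lower at that p, and 16.2% had all KO libraries under all WT libraries. *Eif1*, whose protein keeps the scanning ribosome from starting at wrong codons, was the most abundant gene of the family. It measured 646, 565 and 528 FPKM in WT against 453, 369 and 455 FPKM in KO muscle, so each KO library lay under each WT library. The means were 580 ± 60.1 and 426 ± 49.1 FPKM (SD, n = 3 each), with a log2 fold change of -0.45 (SE 0.13, limma adjusted p = 0.105). With 49.6% GC it kept a fold change of -0.42 after the correction. The paralog *Eif1b* measured 26.1, 25.5 and 22.8 FPKM in WT against 22.0, 22.3 and 24.7 FPKM in KO muscle, with overlap. Its fold change was -0.11, and -0.32 after the GC correction. The ratio of *Eif1* to *Eif1b* was 24.7, 22.2 and 23.2 in WT and 20.5, 16.5 and 18.4 in KO libraries, a log2 difference of -0.34 that was -0.09 after the GC correction.

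*Eif1ax* (eIF1A, on the X chromosome), which works with eIF1 on the small subunit, had the lowest fold change of these genes. It measured 25.2, 25.3 and 24.1 FPKM in WT against 18.9, 14.6 and 17.8 FPKM in KO muscle. The log2 fold change was -0.55 (SE 0.12, limma adjusted p = 0.0750), and -0.21 after the GC correction. The WT libraries lay close together, and all KO libraries lay under them. The autosomal *Eif1a* was at 5.05 to 5.82 FPKM over the 6 libraries, with overlap and a fold change of -0.04 that was 0.26 after the GC correction. *Eif1ad*, which encodes an eIF1A domain protein, measured 10.8, 10.5 and 9.89 FPKM in WT against 8.47, 7.33 and 7.37 FPKM in KO muscle. Its libraries did not overlap, and its log2 fold change was -0.43 (SE 0.11, limma adjusted p = 0.0891). It has a GC content of 52.3%, and the fold change after the correction was -0.55. It shares 15.3% of its exonic bases with *Banf1* on the opposite strand.

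*Eif5*, the GTPase-activating protein of eIF2, measured 77.2, 77.8 and 82.3 FPKM in WT against 70.9, 54.4 and 52.1 FPKM in KO muscle. KO replicate 1 lay nearest the WT range but still under it. *Eif5* had a log2 fold change of -0.43 (SE 0.14, limma adjusted p = 0.115), and -0.14 after the GC correction.

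**Figure D4:**
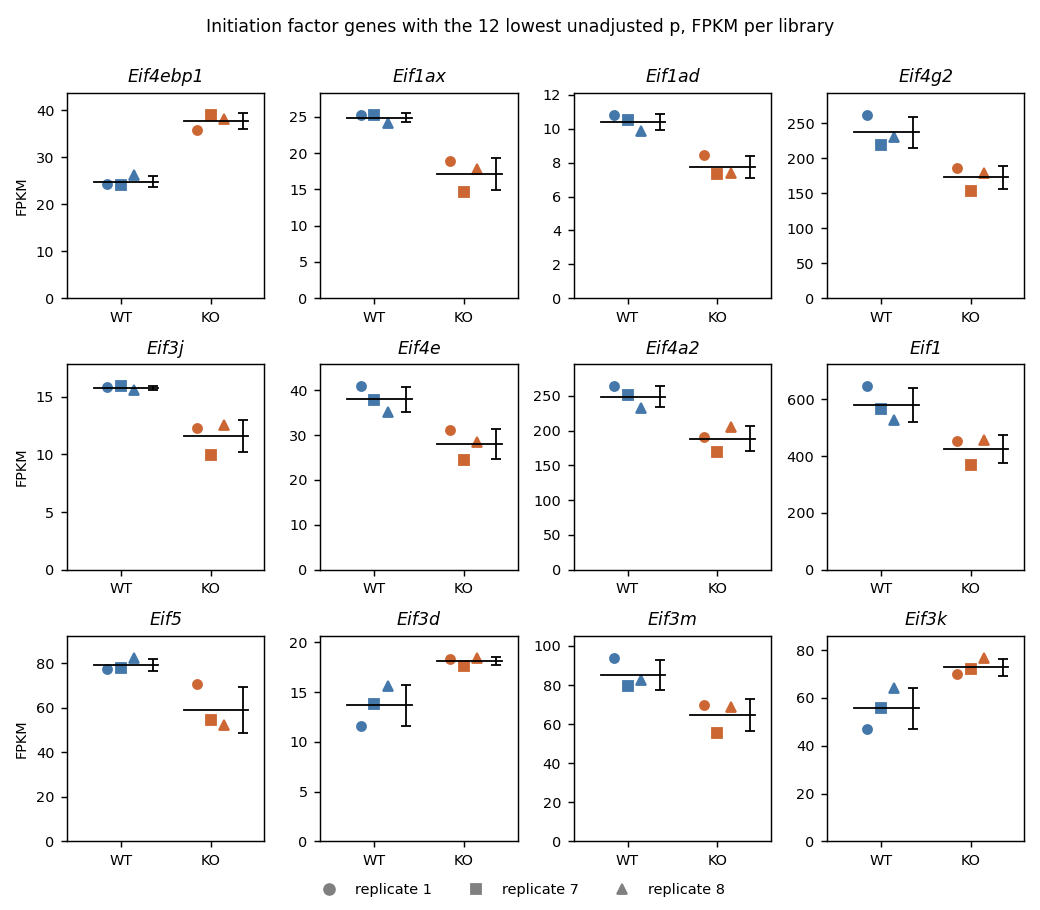
FPKM per library of the 12 initiation factor genes with the lowest unadjusted p, in WT (blue) and KO (orange) GAS muscle; symbols mark replicates 1, 7 and 8, lines the mean and bars the SD (n = 3), and each vertical axis starts at 0. *Eif4ebp1*, *Eif3d* and *Eif3k* are higher and the other 9 lower in KO muscle. In all 12 genes the genotypes do not overlap, which the choice by p in these same libraries favors and which is no separate result. Of all tested genes, 18.3% had all KO libraries above and 16.2% all under the WT libraries.

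The subunits of eIF2, which deliver the initiator tRNA, were all lower in KO muscle as deposited, while *Eif2s1* and *Eif2s3y* lay above 0 after the GC correction. *Eif2s1*, which encodes the phosphorylated α subunit, measured 11.8, 12.01 and 12.6 FPKM in WT against 10.4, 9.57 and 10.8 FPKM in KO muscle. *Eif2s2*, the β subunit, measured 108, 108 and 103 FPKM in WT against 95.3, 68.8 and 84.7 FPKM in KO muscle. *Eif2s3x*, the X-linked γ subunit, measured 29.7, 29.8 and 29.2 FPKM in WT against 25.6, 22.2 and 25.7 FPKM in KO muscle. In each of these the KO libraries lay under the WT libraries, and so they did for *Eif2s3y*, the Y-linked γ subunit of male mice (33.4 to 40.7 FPKM in WT, 27.5 to 30.6 FPKM in KO muscle). The log2 fold changes were -0.24, -0.37, -0.27 and -0.32 in this order, with limma adjusted p-values of 0.149 to 0.191. All 4 were at an unadjusted p under 0.05, and 10.9% of all tested genes were lower at that p. These 4 genes have 37.3% to 43.9% GC, and after the correction their fold changes were 0.07, -0.02, -0.01 and 0.19. The X-linked and the Y-linked γ subunit were expressed at like levels per length, with a ratio of 0.729, 0.856 and 0.876 in WT and of 0.836, 0.808 and 0.886 in KO libraries. *Eif2a*, an alternative tRNA carrier, was at 28.1 to 31.3 FPKM in WT and 18.9 to 26.3 FPKM in KO muscle (fold change -0.34, and 0.0016 after the GC correction). *Eif2d* had a fold change of 0.07, which was -0.05 after the correction.

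The exchange factor eIF2B recharges eIF2 with GTP. Its catalytic subunit *Eif2b5* measured 22.4, 21.6 and 20.2 FPKM in WT against 19.4, 16.8 and 22.1 FPKM in KO muscle, with overlap and a log2 fold change of -0.14 (SE 0.13, limma adjusted p = 0.495) that was -0.28 after the GC correction. The 5 subunits of this complex had fold changes of both signs. *Eif2b4* measured 12.5, 14.0 and 18.4 FPKM in WT against 18.1, 22.3 and 19.6 FPKM in KO muscle (fold change 0.43, limma adjusted p = 0.159), with WT replicate 8 inside the KO range. With 56.7% GC, its fold change was -0.0027 after the correction. *Eif2b2* had a fold change of 0.38 with overlap, which was 0.10 without WT replicate 1 and 0.00042 after the GC correction. *Eif2b1* had one of -0.09, and *Eif2b3* of -0.26 with no overlap (12.9 to 13.7 FPKM in WT, 8.95 to 12.5 FPKM in KO muscle).

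The 4 eIF2α kinases sense different stresses and were all lower in the mean, although *Eif2ak3* lay above 0 without WT replicate 1 and *Eif2ak4* did with array weights. *Eif2ak2* (PKR, the double-stranded RNA sensor) measured 2.37, 1.86 and 1.47 FPKM in WT against 1.40, 1.09 and 1.06 FPKM in KO muscle. The highest KO and the lowest WT library were close. Its log2 fold change was -0.63 (SE 0.23, limma adjusted p = 0.147), the lowest of the 55, and -0.38 after the GC correction. At an estimated 24 fragments in the library where it had the fewest, it is also the tested gene of the family with the fewest. *Eif2ak1* (HRI, the heme-regulated kinase) was the most abundant of the 4 per length, at 13.3, 13.0 and 13.3 FPKM in WT against 12.7, 11.2 and 13.1 FPKM in KO muscle, with overlap and a fold change of -0.10. *Eif2ak3* (PERK, the kinase of the endoplasmic reticulum) measured 1.74, 1.30 and 0.999 FPKM in WT against 1.28, 1.33 and 1.27 FPKM in KO muscle. *Eif2ak4* (GCN2, the amino acid sensor) measured 2.24, 1.39 and 1.65 FPKM in WT against 1.65, 1.25 and 1.44 FPKM in KO muscle. Both overlapped, with fold changes of -0.02 and -0.25, and of -0.16 and -0.25 after the GC correction.

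The 13 subunits of eIF3, the scaffold that holds the factors on the small ribosomal subunit, were split: 7 were higher and 6 lower in the mean, 2 and 3 of them at an unadjusted p under 0.05. Among all tested genes, 15.3% were higher and 10.9% lower at that p. *Eif3d*, the subunit that can bind mRNA caps, measured 11.6, 13.8 and 15.6 FPKM in WT against 18.4, 17.6 and 18.4 FPKM in KO muscle. *Eif3k* measured 47.1, 55.7 and 64.1 FPKM in WT against 69.8, 72.0 and 76.6 FPKM in KO muscle. In both genes the 3 KO libraries were the highest and WT replicate 1 was the lowest. The log2 fold changes were 0.42 (SE 0.13, limma adjusted p = 0.115) and 0.40 (SE 0.13, limma adjusted p = 0.126), and after the GC correction 0.16 and 0.14. *Eif3d* shares 43.3% of its exonic bases with an annotated gene of the opposite strand, and the strand setting of the quantification is not given in the sources used here.

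On the lower side, *Eif3j*, the loosely bound subunit near the decoding site, measured 15.8, 15.9 and 15.6 FPKM in WT against 12.3, 9.97 and 12.5 FPKM in KO muscle. *Eif3m* measured 93.7, 79.2 and 82.7 FPKM in WT against 69.9, 55.5 and 68.9 FPKM in KO muscle. Neither overlapped. Their fold changes were -0.45 (SE 0.12, limma adjusted p = 0.0933) and -0.40 (SE 0.13, limma adjusted p = 0.121), and after the GC correction -0.23 and -0.07. *Eif3j* shares 19.0% of its exonic bases with *Spg11* on the opposite strand. *Eif3a*, the largest subunit and the core of the complex, measured 31.7, 35.7 and 34.7 FPKM in WT against 30.6, 25.4 and 32.5 FPKM in KO muscle, with overlap and a fold change of -0.21 (limma adjusted p = 0.313) that was 0.06 after the GC correction.

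*Eif3e* (110.4 to 124 FPKM in WT, 71.4 to 99.7 FPKM in KO muscle) had a fold change of -0.38 at 37.7% GC, which was 0.09 after the correction. A pseudogene copy of it, *Eif3s6-ps2*, was at 34.5 to 52.2 FPKM and may share fragments with it. *Eif3b* and *Eif3g* did not overlap and were higher in KO muscle, with fold changes of 0.23 and 0.28, -0.09 and -0.18 after the GC correction. The 6 others, *Eif3c*, *Eif3f*, *Eif3h*, *Eif3i*, *Eif3l* and *Eif3a* above, overlapped between the genotypes, with fold changes of -0.21 to 0.25.

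Of the factors of subunit joining and later steps, *Eif5b*, the GTPase that joins the large subunit, measured 17.3, 16.6 and 15.7 FPKM in WT against 14.9, 12.2 and 14.0 FPKM in KO muscle. The KO libraries lay under the WT libraries. *Eif5b* had a log2 fold change of -0.27 (SE 0.12, limma adjusted p = 0.190), and 0.01 after the GC correction. *Eif5a*, the hypusine-carrying factor that now counts mainly as an elongation factor, measured 161, 199 and 209 FPKM in WT against 234, 189.6 and 214 FPKM in KO muscle, with overlap. *Eif6*, which keeps the large subunit free until it is needed, measured 24.4, 19.7 and 24.7 FPKM in WT against 23.4, 15.4 and 27.0 FPKM in KO muscle, with overlap. Their fold changes were 0.17 and -0.09, and after the GC correction -0.08 and -0.44. *Eif5a2* was far under *Eif5a* in each library, at a ratio of *Eif5a* to *Eif5a2* of 236 to 1043.

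The 4 Argonaute genes that passed the filter were at 0.707 to 7.28 FPKM and none reached an unadjusted p of 0.05. *Eif2c3* (*Ago3*) did not overlap, at 0.764 to 1.26 FPKM in WT and 0.707 to 0.716 FPKM in KO muscle, and *Eif2c1* (*Ago1*) did not overlap in the other direction (1.73 to 2.001 and 2.06 to 2.24 FPKM). Without the Argonaute genes, 34 of 51 genes were lower in KO muscle, and the median fold change was -0.11.

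The genes that control initiation or act beside it were read from 4 lists of translation genes outside the family, and none of their members passed an adjusted p under 0.05. Of the 18 genes of mTORC1 and the eIF4E kinases, 12 were higher, 6 of them at an unadjusted p under 0.05, and 6 were lower, 2 of them at that p, beside 15.3% and 10.9% of all tested genes. After the GC correction 1 was higher and 2 were lower at that p, beside 5.37% and 5.43% of all genes. The 2 were *Rheb* and *Akt1s1* (-0.27, and 0.39 as deposited). The list holds genes that activate and genes that restrain mTORC1, so its counts give no direction for the pathway. *Mknk2*, which encodes a kinase that phosphorylates eIF4E, measured 23.4, 29.9 and 35.7 FPKM in WT against 48.6, 63.2 and 65.8 FPKM in KO muscle. Its log2 fold change was 1.00 (limma adjusted p = 0.0667), and 0.41 after the GC correction. *Mtor*, the kinase that phosphorylates 4E-BP1, was at 4.96 to 6.13 FPKM in WT and 7.14 to 9.18 FPKM in KO muscle, with a fold change of 0.52 that was 0.29 after the correction. *Rheb*, its activating GTPase, was at 51.6 to 62.8 FPKM in WT and 35.4 to 45.3 FPKM in KO muscle, with a fold change of -0.48 that was -0.37 after the correction.

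The list of the integrated stress response holds genes that act on eIF2 phosphorylation or are induced after it. Of its 16 tested genes, 9 were higher and 7 lower, 7 and 3 at an unadjusted p under 0.05, beside the same 15.3% and 10.9%. After the GC correction 4 were higher and 2 lower at that p, beside 5.37% and 5.43% of all genes. *Atf4*, the transcription factor at its center, overlapped between the genotypes at 114 to 124 FPKM in WT and 101 to 119.8 FPKM in KO muscle, with a fold change of -0.10 that was -0.43 after the GC correction. *Chac1*, a glutathione-degrading enzyme, measured 5.79, 14.0 and 6.28 FPKM in WT against 25.9, 18.5 and 21.9 FPKM in KO muscle. *Ddit3* (CHOP) measured 10.3, 7.67 and 8.62 FPKM in WT against 13.5, 12.8 and 14.4 FPKM in KO muscle. The genotypes did not overlap for either gene, and the fold changes were 1.44 and 0.61 (limma adjusted p = 0.0750 for both), 0.95 and 0.53 after the GC correction. *Atf5*, *Phgdh*, *Shmt2* and *Nupr1* were higher without overlap (0.48, 1.39, 0.71 and 0.62, and -0.18, 1.01, 0.19 and 0.48 after the correction). *Asns* was lower with overlap (-0.21, and -0.16 after the correction). *Fgf21* was at 0 in each library, and *Gdf15*, *Trib3* and *Slc7a11* were under the filter. *Ppp1r15a* (GADD34), the stress-induced subunit of the eIF2α phosphatase, had a fold change of 0.60 (0.23 after the correction) with no overlap and *Ppp1r15b*, the constitutive subunit, of -0.10 with overlap. Phosphorylation of eIF2α, eIF4E or 4E-BP1 was not measured.

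Of the 14 partners of eIF4F and the small subunit, 4 were higher and 10 lower, with 3 lower and none higher at an unadjusted p under 0.05, beside 10.9% and 15.3% of all tested genes. The 3 were *Larp4* (-0.57), the helicase gene *Ddx3x* (-0.43) and *Mcts1* (-0.36), all at 39.7% to 41.8% GC, and after the correction they were at -0.23, -0.11 and 0.01. After the correction a different pair was at p under 0.05, *Pabpc4* (-0.21, and 0.01 as deposited) and *Pdcd4* (0.38, and 0.15 as deposited). Of the 12 tested genes of elongation and release, 5 were higher and 7 lower. At an unadjusted p under 0.05 there were 4 each, beside 15.3% higher and 10.9% lower of all tested genes. The muscle elongation factor gene *Eef1a2* measured 244, 371 and 409.7 FPKM in WT against 553, 539 and 586 FPKM in KO muscle, a fold change of 0.75 at 60.6% GC that was 0.10 after the correction. *Eef2* (0.68) and its kinase gene *Eef2k* (0.46) were higher in KO muscle without overlap, and *Abce1* (-0.36) and *Etf1* (-0.28), which recycle and release ribosomes, were lower without overlap. After the GC correction, none of the 12 was at p under 0.05.

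What the family shares in sequence was read from the 250 bases before the transcription start in the RefSeq promoter table of GRCm38.p6, in which 47 of the genes were found and used. Motifs were counted on both strands. The GC box GGGCGG was in 34 of the 47 (72.3%, against 32.9% of 27025 promoters), and the ETS motif CCGGAA in 16 (34.0%, against 12.2%). These 27025 promoters were not limited to genes expressed in this muscle or to promoters of like GC content. The 47 include Argonaute genes. The E-box CACGTG was in 7 (14.9%, against 6.05%), namely those of *Eif5a2*, *Eif4h*, *Eif3k*, *Eif3f*, *Eif1b*, *Eif4a1* and *Eif4g1*. Of the tested genes with an E-box, *Eif3k*, *Eif4h* and *Eif4g1* had positive and *Eif3f*, *Eif1b* and *Eif4a1* negative fold changes, while after the GC correction *Eif3k* alone was positive. The CCAAT motif was in 13 (27.7%, against 34.5%) and TATAAA in 4 (8.51%, against 13.0%). The cAMP response element TGACGTCA had no match in the 47, against 1.62% of all promoters. The E-box pattern reads the same on both strands, and the motifs may overlap each other.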

How the data were processed

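Reads of stranded mRNA libraries were aligned by the authors to GRCm38 (TopHat), Cufflinks gave the gene levels, and the deposited table holds these FPKM values for 37979 genes in 6 libraries, without counts. Versions, the annotation release and the strand setting are not given in the sources used here. Fragments of near-identical copies and overlapping genes may be split between them, which FPKM cannot reveal. The 60 genes, the lists and the tests were chosen with earlier results of these data known.

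Depth was estimated from genes with 1 transcript of 1500 to 6000 bases, whose low values fell on steps of whole fragments for 91.2% to 95.7% of values (tolerance 0.15); 1 fragment on 1 kilobase is worth 0.0464 to 0.0669 FPKM. The genotypes were compared on the log2(FPKM + 0.1) scale by limma 3.58.1 (R 4.3.3, variance trend) over the 12334 genes whose mean reached 0.5 FPKM, with Benjamini-Hochberg adjustment and calls at 0.05. Exon positions, GC content and overlaps came from GENCODE vM21 (32935 gene identifiers matched). The GC correction subtracted a loess curve of span 0.3 from each library and covered 97.2% of tested genes. No pair of libraries shared more than 1 of 14983 values. The scripts were tested on simulated data.

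Values per library are given for the 12 genes with the lowest p and for central genes of each role, 28 in all, and for a few others chosen after their values were seen. Nothing in the sources used here gives a batch. The p-values measure the spread between the 3 mice of a group. Alternatives covered the pseudocount, the filter, scaling, the variance model, array weights, a replicate block, GC content, length, values of 0, shared symbols and each library.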

Additional observations from a re-analysis of the deposited data

How the results depend on the processing

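None of the 55 tested genes of the family passed an adjusted p under 0.05 with limma, under any alternative but 1: with array weights, which down-weight libraries that stand apart, 5 were higher and 13 lower, beside 15.1% and 10.4% of all tested genes (1863 and 1284). *Eif4ebp1* then had an adjusted p of 0.00543, and over its other alternatives kept its direction. Over all genes, 31 were called higher in the fit reported; the count was 7 with a pseudocount of 1, 9 without the filter, 20 with median centring, 11 with quantile normalization, 12 without the variance trend, 9 with the length correction, 6 with the GC correction, 5 with the GC correction and the block, 1 with genes listed at 0 left out, and 6 to 19 without 1 library. Of genes called lower (9), there were 4 with a pseudocount of 1, 0 with genes listed at 0 left out (1299 at an unadjusted p under 0.05, limma), and 5 to 19 without 1 library. Genes of the family higher at an unadjusted p under 0.05 (4) numbered 9 with array weights, 2 with the length correction, 1 with the GC correction, with or without the block, and 2 to 7 without 1 library (2 without KO replicate 8, 7 without WT replicate 8). The all-gene count higher at that p was 1891 in the fit reported and 2777 with array weights. That count was 1431 with the length correction, 643 with the GC correction (551 with the block) and 1392 to 1917 without 1 library. Genes of the family lower at that p (16) numbered 4 with the GC correction, with or without the block, and 10 to 15 without 1 library (10 without KO replicate 7 and 10 without WT replicate 7). The all-gene count lower at that p was 1339 in the fit reported and 651 with the GC correction (574 with the block). Without 1 library it was 791 to 1343 (848 without KO replicate 7, 791 without WT replicate 7). The median fold change of the 55 was -0.21 with the length correction and the all-gene median -0.06. The cause of these shifts was not tested.

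No pairing by replicate number showed in the values, although so few correlations cannot exclude one. Same-numbered libraries of the genotypes deviated from their group means with correlations of -0.03, -0.08 and 0.03, and libraries of unlike numbers with -0.07 to 0.09. With the replicate block, 6 genes were called higher and 7 lower over the table. At an unadjusted p under 0.05, 4 genes of the family were then higher and 13 lower, beside 1754 and 1030 of all 12334 tested genes.

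The GC correction reversed the direction of 17 of the 55, to values of -0.18 (*Eif3g*) to 0.26 (*Eif1a*). Of the genes named by rule these were *Eif2s1* (0.068), *Eif3a* (0.063), *Eif5b* (0.013), *Eif4g1* (-0.067) and *Eif5a* (-0.081), with or without the block. Array weights reversed 6 of the 55, namely *Eif2ak4* (0.0080), *Eif6* (0.24), *Eif2b2*, *Eif3f*, *Eif3h* and *Eif4enif1*, the length correction *Eif2c2*, *Eif2c4* and *Eif4b*, and median centring and quantile normalization *Eif2c4*. When 1 library was left out, fold changes of both signs were found for 10 of the 55, namely *Eif1a*, *Eif2c2*, *Eif2c4*, *Eif3f*, *Eif3h*, *Eif4b*, *Eif4enif1* and the genes named by rule *Eif6* (-0.26 to 0.14, the highest without KO replicate 7), *Eif2ak3* (-0.20 to 0.17, the highest without WT replicate 1) and *Eif4ebp2* (-0.091 to 0.45, the lowest without WT replicate 1). So were log2 differences of ratios for *Eif2s3x* to *Eif2s3y* (-0.038 to 0.093) and *Eif5a* to *Eif5a2* (-0.34 to 0.52), both lowest without WT replicate 1. With the GC correction, added after the data were seen, ratios reversed for *Eif4g1* to *Eif4g3* (-0.022), *Eif2s3x* to *Eif2s3y* (-0.19) and *Eif4e* to *Eif4e2* (0.0045). Depth limits the kinases *Eif2ak2*, *Eif2ak3* and *Eif2ak4* and the Argonaute genes *Eif2c1*, *Eif2c3* and *Eif2c4* most, with an estimated 24 to 83 fragments in their lowest library.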
